A study of Rattus norvegicus with 9 samples.

Results

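Bdnf and 9 immediate early genes, Fos, Fosb, Junb, Egr1, Egr3, Npas4, Nr4a1, Arc and Dusp1, were followed across vehicle-treated, NPCT-treated and PCT-treated rat neurons. They were chosen by symbol as a family of neuronal activity genes, and all 10 were found in the table of 34092 genes. Of the 10, 9 had a mean of at least 0.5 FPKM over all libraries and were tested among 15958 genes. FPKM are fragments per kilobase of transcript, scaled by a library size, which here was not the fragment total of the library. Fosb, with a mean of 0.281 FPKM, lay below that minimum and was described only.

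The cells were wild-type (WT) rat primary hippocampal neurons from embryonic day 17 fetuses, grown without mitotic inhibitors, so that glia could remain beside neurons. At 7 days in vitro they received vehicle (Control), 1 nM human NPCT or 1 nM human PCT for 24 h, with 3 libraries per group. PCT is procalcitonin, the precursor of calcitonin, and NPCT (aminoprocalcitonin) is its amino-terminal part. The study's methods mention pooling of biological triplicates for RNA extraction, whereas the labels number 3 replicates per group, so that p values measure the spread between these libraries, which may be partly technical. Recovered fragments ranged from 13573056 to 17211642 per library. All 12 neuronal markers were above the minimum, with a summed level of 2138 to 2233 FPKM in Control, 2063 to 2126 FPKM with NPCT and 2081 to 2288 FPKM with PCT. The 8 astrocyte markers summed to 2438 to 2616, 2385 to 2658 and 2101 to 2170 FPKM in the same order, so the cultures were not neurons alone. In such bulk RNA, fewer cells of a type and less RNA per cell cannot be told apart.

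Immediate early genes are transcribed within minutes of synaptic activity or growth factor signalling, without a need for new protein. Calcium entry and kinase cascades act on CREB, SRF and MEF2 already bound at their promoters, and most of the transcripts are short-lived. Fos, Fosb and Junb encode subunits of AP-1, Egr1 and Egr3 zinc finger factors, Npas4 an activity-specific bHLH-PAS factor and Nr4a1 an orphan nuclear receptor, whereas Arc acts at the synapse in AMPA receptor endocytosis and Dusp1 is a phosphatase that inactivates MAP kinases. Bdnf encodes brain-derived neurotrophic factor, the ligand of the TrkB receptor, and is transcribed from several alternative promoters, some of which respond to calcium. The FPKM values sum over all of these transcripts, so promoter-specific Bdnf messages were not resolved here.

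Promoters of 7 of the 10 genes, at 12 start sites, were found in the RefSeq promoter table of build GRCr8, of which 6 starts belonged to Bdnf. The 250 bases upstream of a start were searched on both strands for the CRE TGACGTCA, its shorter core TGACG, the AP-1 motif TGANTCA, the EGR motif GCGNGGGCG, the SRF-binding CArG box and the TATA box TATAAA. A full CRE contains the core, so that it is counted under both. These 5 promoters are shown as the ones with a CRE, a CRE core, an EGR motif or a CArG box, at chr18:26736828-26737077 (+) for Egr1, chr10:17184603-17184852 (+) for Dusp1, chr7:134259888-134260137 (+) for Nr4a1, chr19:40080876-40081125 (+) for Junb and chr3:116637608-116637857 (+) for the fourth listed Bdnf start. Each runs 5′ to 3′ toward the start site, and capitals mark the CRE, its core, the AP-1 motif, the EGR motif and the CArG box, while TATA boxes stay in lower case.
Egr1: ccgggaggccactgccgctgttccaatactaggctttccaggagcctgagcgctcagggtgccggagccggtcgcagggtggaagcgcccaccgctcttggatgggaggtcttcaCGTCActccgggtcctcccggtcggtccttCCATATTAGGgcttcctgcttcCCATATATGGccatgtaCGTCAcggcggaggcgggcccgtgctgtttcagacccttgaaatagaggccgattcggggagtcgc
Dusp1: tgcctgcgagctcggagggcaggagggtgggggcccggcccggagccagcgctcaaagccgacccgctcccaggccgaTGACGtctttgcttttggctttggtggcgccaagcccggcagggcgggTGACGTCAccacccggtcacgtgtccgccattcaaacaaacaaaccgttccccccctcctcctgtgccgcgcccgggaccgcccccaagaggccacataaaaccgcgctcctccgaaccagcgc
Nr4a1: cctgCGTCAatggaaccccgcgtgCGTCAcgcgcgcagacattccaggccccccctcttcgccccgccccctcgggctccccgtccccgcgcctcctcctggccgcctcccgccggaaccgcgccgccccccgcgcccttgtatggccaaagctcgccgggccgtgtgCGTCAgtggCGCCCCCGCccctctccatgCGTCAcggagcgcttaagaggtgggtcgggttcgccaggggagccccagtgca
Junb: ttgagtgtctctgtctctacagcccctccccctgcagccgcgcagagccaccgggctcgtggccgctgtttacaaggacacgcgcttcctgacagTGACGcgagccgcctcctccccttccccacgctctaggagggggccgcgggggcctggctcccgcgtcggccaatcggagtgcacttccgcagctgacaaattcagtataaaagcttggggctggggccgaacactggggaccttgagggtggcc
Bdnf start 4: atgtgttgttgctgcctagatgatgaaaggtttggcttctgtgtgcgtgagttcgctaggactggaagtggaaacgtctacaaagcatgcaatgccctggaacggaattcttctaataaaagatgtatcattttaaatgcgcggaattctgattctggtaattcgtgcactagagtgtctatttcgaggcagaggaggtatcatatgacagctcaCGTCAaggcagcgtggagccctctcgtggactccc

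The Egr1 promoter held 2 CArG boxes, at -105 to -96 and at -83 to -74 from the start, and 2 CRE cores. CArG boxes were present in 1.50% of 33360 distinct promoters of that length. The Dusp1 promoter held the only full CRE among the matched starts, at -124 to -117, against 1.59% of all promoters. The Nr4a1 promoter held 4 CRE cores and an EGR motif at -73 to -65. The core occurred in 18.2% and the EGR motif in 4.30% of all promoters. Junb had a CRE core at -155 to -151 and a TATA box at -49 to -44, the latter a motif of 12.9% of promoters. The Bdnf promoter shown had a core at -35 to -31, and a different Bdnf start had an AP-1 motif, found in 6.35% of promoters. Neither Npas4 nor Fosb held any of the motifs in capitals within this window. These matches describe the sequence and not binding.

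The genes differed widely in level, which FPKM allows to be compared because it is scaled by length. Egr1 was the most abundant, with a mean of 19.9 FPKM over the 9 libraries, followed by Junb at 16.7 and Fos at 13.9 FPKM. Egr1 exceeded Junb in 4 of 9 libraries and Junb exceeded Fos in 6 of 9, so that the order of these top genes was not separated from the spread. Fos exceeded Dusp1 (mean 7.47 FPKM) in 9 of 9 libraries. Dusp1 exceeded Egr3 (6.35 FPKM) in 8 of 9, and Egr3 exceeded Nr4a1 (3.99 FPKM) in 9 of 9. Nr4a1 lay above Bdnf (2.62 FPKM) in 7 of 9 libraries and Bdnf above Arc (2.04 FPKM) in 8 of 9. Npas4, at 1.08 FPKM, was below Arc and above Fosb in every library. Egr1 stood at percentile 70.7 of the tested genes by mean level and Npas4 at percentile 10.04, so the activity genes were moderate to low transcripts of these cultures.

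A single vehicle library, Control replicate 3, stood apart in most of these genes. It was more than 2-fold above both other Control libraries in 6 of the 9 tested members, Egr1, Egr3, Arc, Npas4, Nr4a1 and Fos, where 1.69% of all tested genes were that high in it. It held the highest value of all 9 libraries in 7 of the 9 tested members, against 7.23% of all genes. No other library was more than 2-fold above both others of its group in any tested member. Relative to the mean of the other Control libraries, the median log2 ratio of Control replicate 3 was 1.31 over the 9 tested members. Over all tested genes the median was 0.00, and the central 95% of single genes lay between -1.05 and 0.96. That range is of single genes and not of medians of 9 genes. The library had 14527524 fragments, the fewest of the Control group, and its neuronal marker sum ranked 2 and its astrocyte marker sum 5 from the top of the 9 libraries. Its microglial marker sum was 44.5 FPKM, beside 31.9 and 44.2 FPKM in the other Control libraries. The part of culture make-up or handling in this departure was not tested. The members' comparisons with vehicle are therefore given with and without this library. Since it was singled out on the members' own values, leaving it out raises their fold changes against vehicle by construction. It also narrows the spread of most of them, so the fits without it are no independent support.

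**Figure D1:**
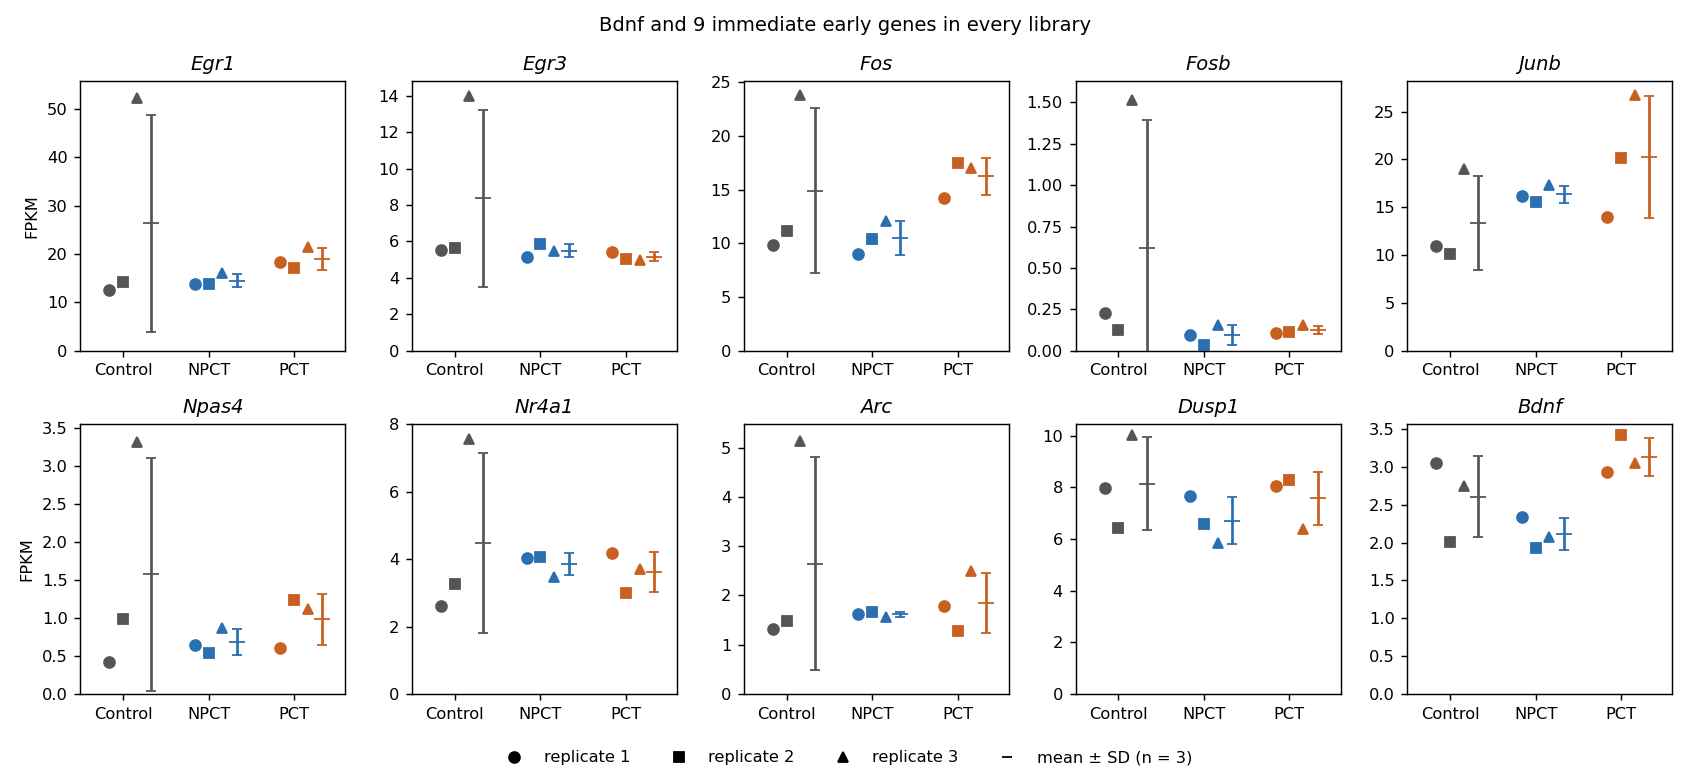
FPKM (vertical axes, each from 0) of the 10 genes in the Control, NPCT and PCT libraries, with a symbol for each replicate and, to its right, the group mean and SD (n = 3), the lower SD of Fosb in Control being cut at 0. Control replicate 3 lies at the top of its group in 9 of the 10 panels, the exception being Bdnf, and Egr1 reaches 52.2 FPKM there against at most 21.5 FPKM elsewhere.

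Egr1, a factor with many neuronal targets, measured 12.6, 14.3 and 52.2 FPKM in Control replicates 1 to 3, 13.8, 13.7 and 16.0 FPKM with NPCT, and 18.2, 17.1 and 21.5 FPKM with PCT. The third Control value was 3.88 times the mean of the other Control values. Apart from it, the PCT libraries were the highest and lay above every NPCT library. Its paralog Egr3 measured 5.51, 5.64 and 14.0 FPKM in Control, 5.17, 5.86 and 5.47 FPKM with NPCT, and 5.44, 5.03 and 5.00 FPKM with PCT. Egr3 was nearly level outside Control replicate 3, which was 2.51 times the mean of the other controls.

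Fos measured 9.85, 11.1 and 23.8 FPKM in Control, 8.96, 10.4 and 12.1 FPKM with NPCT, and 14.3, 17.4 and 17.0 FPKM with PCT. All PCT values lay above all NPCT values, and above the first and second but not the third Control library. Fosb, of which a truncated splice form is known for long persistence in neurons, was at 0.227, 0.126 and 1.51 FPKM in Control, 0.0956, 0.0372 and 0.156 FPKM with NPCT, and 0.108, 0.113 and 0.152 FPKM with PCT. These values rest on 2 to 13 fragments per library except for the 82 fragments of Control replicate 3, which was 8.60 times the mean of the other controls. Junb, which often restrains other AP-1 members, measured 10.9, 10.1 and 19.0 FPKM in Control, 16.2, 15.6 and 17.3 FPKM with NPCT, and 14.0, 20.2 and 26.7 FPKM with PCT. In Junb alone of these AP-1 genes, the first and second Control libraries lay below every treated library.

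Npas4 measured 0.424, 0.982 and 3.31 FPKM in Control, 0.639, 0.538 and 0.869 FPKM with NPCT, and 0.603, 1.23 and 1.11 FPKM with PCT. With 16 to 48 fragments outside Control replicate 3, its groups overlapped. Nr4a1 measured 2.62, 3.25 and 7.56 FPKM in Control, 4.03, 4.06 and 3.48 FPKM with NPCT, and 4.18, 2.99 and 3.71 FPKM with PCT. Arc measured 1.31, 1.49 and 5.14 FPKM in Control, 1.63, 1.66 and 1.56 FPKM with NPCT, and 1.78, 1.28 and 2.49 FPKM with PCT. For both genes the third Control library was the highest of all 9.

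Dusp1 moved little, between 6.41 and 10.03 FPKM in Control, 5.85 and 7.68 FPKM with NPCT and 6.39 and 8.28 FPKM with PCT. Bdnf measured 3.05, 2.01 and 2.75 FPKM in Control, 2.35, 1.93 and 2.07 FPKM with NPCT, and 2.93, 3.42 and 3.05 FPKM with PCT. Every PCT library exceeded every NPCT library, and the Control libraries spanned both groups. Control replicate 3 was not high in Bdnf, at 1.09 times the mean of the other controls, nor far above them in Dusp1, at 1.39 times.

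**Figure D2:**
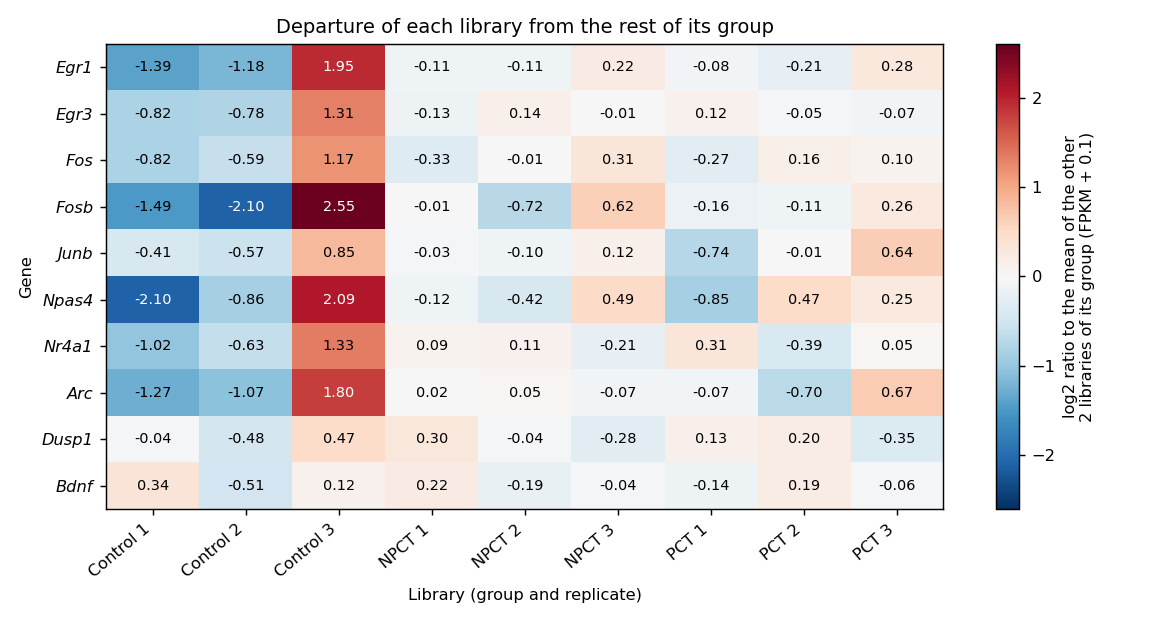
Log2 ratio of each library's FPKM plus 0.1 to the mean of the other 2 libraries of its group, for each gene (rows) and library (columns), with red above and blue below. The Control 3 column is positive in all 10 genes, from 0.12 in Bdnf to 2.55 in Fosb, and the first and second Control columns are mostly negative, with Bdnf in Control 1 at 0.34 as the exception, their reference including that library.

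The spread within the Control group differed between genes. The coefficient of variation of Egr1 was 85.0% in Control, 9.03% with NPCT and 12.01% with PCT, and that of Arc was 81.6%, 3.05% and 32.8%. For Bdnf, in which Control replicate 3 lay between the other Control values, it was 20.53%, 10.01% and 8.10%. Among Egr1, Egr3, Arc, Npas4, Nr4a1, Fos and Fosb, which were picked because Control replicate 3 was more than 2-fold up in them, the 21 pairwise Pearson correlations of log2 levels ranged from 0.58 to 0.95, with a median of 0.85, over 9 libraries. Without Control replicate 3 they ranged from -0.69 to 0.89, with a median of 0.08. Since the genes were picked on that library, a high correlation with it was built in, and no conclusion is drawn. Bdnf correlated with each of the other members at -0.09 to 0.58, and at -0.70 to 0.68 without that library.

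In the comparison of NPCT with Control, which asks whether levels differed after 24 h of the peptide, none of the 9 tested members was called. An earlier, passing response of such short-lived transcripts could not be seen at this single time, here or with PCT. A call needed both an adjusted p no higher than 0.05 (limma, Benjamini-Hochberg over 15958 genes) and a change of more than 1.5-fold, a rule that 0.219% of all tested genes passed. At an unadjusted p under 0.05 the count of members was also 0, where 29.3% of all genes passed, and limma-voom called 0 members and 2.22% of all genes. With all libraries, 8 members were lower and 1 was higher, with a median log2 fold change of -0.40 against 0.01 over all genes, and adjusted p of 0.328 to 0.919. Bdnf differed by -0.27 ± 0.18 (log2, SE; 95% confidence interval -0.67 to 0.12). Egr1 differed by -0.54 ± 0.45 and Npas4 by -0.69 ± 0.61, with intervals that held 0. No member had groups that did not overlap, where 40.3% of all genes had.

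Most of these negative values rested on Control replicate 3, though Bdnf was still at -0.22 and Dusp1 at -0.10 without it. Without it, Arc, Egr1, Npas4 and Nr4a1 turned to 0.20, 0.11, 0.03 and 0.39 on the log2 scale, Fos was at -0.01 and Egr3 at -0.02, and 5 members were higher and 4 lower. Junb stood at 0.63 ± 0.23 (log2, SE; limma, adjusted p = 0.144), in a fit that called 0 of all 15958 genes. Groups did not overlap for 3 members, Arc, Junb and Nr4a1, all higher with NPCT, where 51.0% of all genes did not overlap. With PCT replicate 3 left out as well, Junb was called higher with NPCT at 0.63 (limma, adjusted p = 0.0340), in a fit that called 3.74% of all genes. The adjusted p of Junb ranged from 0.0340 to 0.749 over the alternatives. Bdnf stayed lower with NPCT in all alternatives, from -0.44 to -0.15, and passed the threshold in none of them, its adjusted p ranging from 0.199 to 0.663.

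In the comparison of PCT with Control, which shares its vehicle libraries with the one above, none of the 9 members was called either, where 2.31% of all genes were. Limma-voom likewise called 0, against 2.43% of all genes, and 1 member, Junb, had an unadjusted p under 0.05, where 18.9% of all genes had. Junb was at a mean of 13.3 ± 4.93 FPKM (SD, n = 3) in Control and 20.3 ± 6.37 FPKM with PCT, a log2 fold change of 0.61 ± 0.27 (SE; limma, adjusted p = 0.261). Bdnf was at 2.61 ± 0.535 FPKM in Control and 3.13 ± 0.254 FPKM with PCT, a log2 fold change of 0.27 ± 0.18 (SE; limma, adjusted p = 0.452). Fos differed by 0.23 ± 0.29 and Egr1 by -0.16 ± 0.45 on the log2 scale. Over the 9 members, 3 were higher and 6 lower, with a median of -0.16 against 0.00 over all genes. The groups did not overlap for 1 member, Egr3, lower with PCT at -0.55 ± 0.30 (log2, SE; limma, adjusted p = 0.378), where 24.9% of all genes did not overlap.

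Without Control replicate 3, the members shifted to 8 higher and 1 lower with PCT, with a median log2 fold change of 0.33. That library was singled out for its high values in most members, so this rise and the smaller SEs below were partly built in. Without it, Fos was at 0.62 ± 0.15, Junb at 0.89 ± 0.23 and Egr1 at 0.49 ± 0.12 (log2, SE). These 3 of 9 had an unadjusted p under 0.05, where 15.2% of all genes had. None of the 3 passed after adjustment over all genes (limma, adjusted p = 0.0902, 0.112 and 0.110), in a fit that called 187 of 15958 genes. Groups did not overlap for Egr1, Fos and Junb, higher with PCT, and for Egr3, lower with PCT, which is 4 of 9 members where 33.9% of all genes did not overlap. Egr3 differed by only -0.11 ± 0.11 there.

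**Figure D3:**
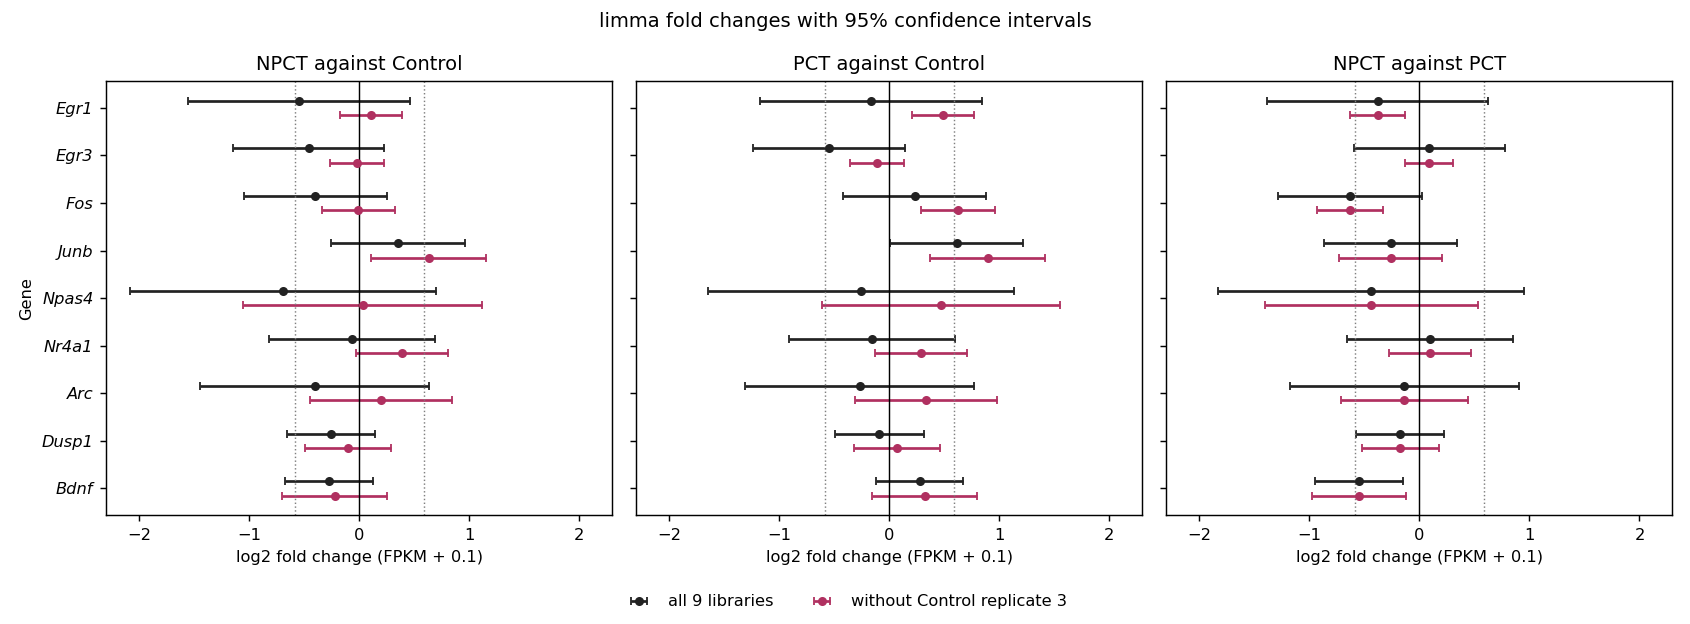
Log2 fold change (horizontal axis, on FPKM plus 0.1) with its 95% confidence interval from limma for the 9 tested genes in the 3 comparisons, with all 9 libraries in black and without Control replicate 3 in red, dotted lines marking a 1.5-fold change. In NPCT against PCT the estimates are the same in both fits, since that library enters only through the shared spread, and the interval of Bdnf lies below 0 in both while being slightly wider without it (-0.97 to -0.12).

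In the direct comparison of the peptides at the same dose and time, Bdnf was the member with the lowest adjusted p. Its mean was 2.11 ± 0.212 FPKM (SD, n = 3) with NPCT and 3.13 ± 0.254 FPKM with PCT, and the log2 difference of NPCT from PCT was -0.55 ± 0.18 (SE; 95% confidence interval -0.95 to -0.15; limma, adjusted p = 0.0641, unadjusted p = 0.0124). Neither Bdnf nor any other member was therefore called, where 5.76% of all genes were called. The Bdnf adjusted p ranged from 0.0277 to 0.181 over the alternatives. Bdnf was called under quantile normalization, at -0.65 (limma, adjusted p = 0.0383), in a fit that called 5.40% of all genes. With limma-voom on recovered fragments, its adjusted p was 0.0277 at a log2 difference of -0.57, short of the 1.5-fold limit, and without Control replicate 2 it was 0.0488 at -0.55.

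Fos was at 10.5 ± 1.55 FPKM with NPCT and 16.2 ± 1.73 FPKM with PCT, a log2 difference of -0.63 ± 0.29 (SE; limma, adjusted p = 0.163). Without Control replicate 3, which enters this comparison only through the spread shared by the groups, the same difference had an SE of 0.13 and was called (limma, adjusted p = 0.0253), in a fit that called 4.96% of all genes. Fos, Egr1, Egr3 and Nr4a1 are among the genes on which that library was singled out. Leaving it out narrowed their spread by construction, so this call is no independent support. Over all the alternatives the adjusted p of Fos ranged from 0.0246 to 0.346. Egr1 was at 14.5 ± 1.31 FPKM with NPCT and 18.9 ± 2.27 FPKM with PCT, or -0.38 ± 0.45 on the log2 scale, with an adjusted p of 0.591 and of 0.0599 without Control replicate 3 (limma). Groups did not overlap for 3 members, Bdnf, Egr1 and Fos, all lower with NPCT, where 33.4% of all genes did not overlap. For each of these 3 the exact two-sided permutation test gave p = 0.1, the smallest that 3 against 3 libraries can give. Over the members, 7 were lower and 2 higher with NPCT, with a median of -0.26 against -0.01 over all genes. The intervals of Egr3 (-0.60 to 0.78) and Nr4a1 (-0.66 to 0.85) included both a fall and a rise of 1.5-fold. Without Control replicate 3 they were -0.13 to 0.31 and -0.28 to 0.47, within 1.5-fold in both directions.

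Fosb was fitted only when the filter on low values was dropped. Its log2 fold changes were then -1.37 for NPCT against Control, -1.14 for PCT against Control and -0.23 for NPCT against PCT (limma, adjusted p = 0.281, 0.510 and 0.882). The comparisons with Control rest on the 82 fragments of a single Control library, and that between the peptides on 2 to 10 fragments per library.

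Marker levels of other cell types moved with the peptide groups beside these values. The 10 microglial markers measured summed to 31.9 to 44.5 FPKM in Control, 42.4 to 193 FPKM with NPCT, the top value being NPCT replicate 3, and 15.4 to 19.99 FPKM with PCT. The 8 oligodendrocyte lineage markers summed to 409 to 426, 438 to 452 and 353 to 367 FPKM in the same order, and the 5 fibroblast markers to 11.4 to 14.9, 10.997 to 12.97 and 13.6 to 22.6 FPKM. Astrocyte markers, given above, were lowest with PCT. The part of these cell types in the differences of Bdnf, Fos and Egr1 between the peptides was not tested. Without NPCT replicate 3, Bdnf differed by -0.54 on the log2 scale between the peptides (limma, adjusted p = 0.128).

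Of 24 other immediate early transcription factors, all tested, none was called with NPCT, where 0.219% of all genes were, and 2 were called higher with PCT and none lower, where 2.31% of all genes were called. At an unadjusted p under 0.05, 4 were higher and 3 lower with NPCT, and 7 higher and 2 lower with PCT, or 7 and 9 of 24, where 29.3% and 18.9% of all genes passed. The median log2 fold change of the list was 0.10 with NPCT and 0.19 with PCT, and 0.29 and 0.37 without Control replicate 3. Fosl1, which encodes the AP-1 subunit Fra-1, was at 5.96, 4.28 and 6.69 FPKM in Control, 6.32, 6.75 and 6.93 FPKM with NPCT, and 8.79, 11.7 and 13.7 FPKM with PCT. It rose with PCT by 1.00 ± 0.19 (log2, SE; limma, adjusted p = 0.0245). Atf3, a stress-induced factor of the ATF/CREB family, was at 2.78, 2.88 and 2.59 FPKM in Control, 2.78, 3.33 and 5.41 FPKM with NPCT, and 5.49, 7.37 and 5.29 FPKM with PCT. It rose with PCT by 1.10 ± 0.23 (limma, adjusted p = 0.0359), a call lost without Control replicate 3 (adjusted p = 0.115). Klf6, a zinc finger factor, differed by 0.53 ± 0.11 (limma, adjusted p = 0.0314, and 0.0592 without Control replicate 3), under the fold limit. With NPCT, the most abundant members of the list were Jund, Jun and Nr4a3, at 105.1, 51.9 and 38.0 FPKM against 83.0, 47.9 and 45.9 FPKM in Control, and none of them passed.

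Between the peptides, 2 of the 24 factors were called, where 5.76% of all genes were, and 2 were higher and 7 lower with NPCT at an unadjusted p under 0.05, where 33.1% of all genes passed. Fosl1 was lower with NPCT than with PCT by -0.75 ± 0.19 (log2, SE; limma, adjusted p = 0.0324). Cebpb, a factor of inflammatory and growth factor responses, was higher with NPCT by 0.65 ± 0.14 (limma, adjusted p = 0.0176). It was at 28.3, 25.8 and 34.6 FPKM with NPCT and 17.5, 22.2 and 16.7 FPKM with PCT. Its top value was in NPCT replicate 3, where the microglial marker sum was also highest (193 FPKM), a part that was not tested. Klf10, Klf6 and Crem had adjusted p of 0.0128, 0.0133 and 0.0477 with smaller differences of -0.45, -0.56 and -0.51. Control replicate 3 was more than 2-fold above both other controls in 2 of the 24, the Egr paralogs Egr2 and Egr4, where 1.69% of all genes were. Egr2 measured 1.53, 1.79 and 5.56 FPKM in Control, and Egr4 1.06, 0.844 and 4.08 FPKM. Over the 24, this library was the highest of the 9 in 7 factors, against 7.23% of all genes, and its median log2 ratio to the other controls was 0.31, against 0.00 over all genes.

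Of 30 activity-induced effectors of synapses and signalling, 28 were tested. None was called with NPCT and 1 was called higher with PCT, where 0.219% and 2.31% of all genes were called. At an unadjusted p under 0.05, 3 were higher and 3 lower with NPCT, and 6 higher and 1 lower with PCT, where 29.3% and 18.9% of all genes passed. The median log2 fold changes were -0.07 with NPCT and 0.03 with PCT, and -0.0046 and 0.08 without Control replicate 3. Zfp36, which encodes a protein that destabilises AU-rich messenger RNA, was at 4.17, 4.15 and 3.93 FPKM in Control, 5.09, 5.08 and 5.14 FPKM with NPCT, and 6.77, 7.26 and 7.49 FPKM with PCT. It rose with PCT by 0.80 ± 0.08 (log2, SE; limma, adjusted p = 0.00178), the groups being fully apart. Syt4, a vesicle synaptotagmin, was at 161, 155 and 159 FPKM in Control against 109, 116 and 107 FPKM with NPCT, a difference of -0.52 ± 0.08 (limma, adjusted p = 0.0493, and 0.102 without Control replicate 3) that fell short of 1.5-fold.

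Between the peptides, 1 effector was called, Ccn1, a matricellular protein gene, at 6.34, 8.04 and 10.8 FPKM with NPCT and 11.9, 18.8 and 15.1 FPKM with PCT. It was lower with NPCT by -0.87 ± 0.25 (log2, SE; limma, adjusted p = 0.0478). This is 1 of 28 where 5.76% of all genes were called, and 2 effectors were higher and 8 lower at an unadjusted p under 0.05, where 33.1% of all genes passed. Syt4, Scg2, Rgs2 and Zfp36 had adjusted p of 0.00662, 0.00508, 0.0308 and 0.00942 with log2 differences of -0.53, -0.42, -0.37 and -0.48, under the fold limit. Dusp5, a nuclear ERK phosphatase, was the effector in which Control replicate 3 was more than 2-fold above both other controls, with 3.69, 4.05 and 8.54 FPKM in that group. This is 1 of 28, where 1.69% of all genes were that high in it. Control replicate 3 was the highest of the 9 in 8 of the 28 effectors, against 7.23% of all genes, with a median log2 ratio of 0.14, against 0.00 over all genes.

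**Figure D4:**
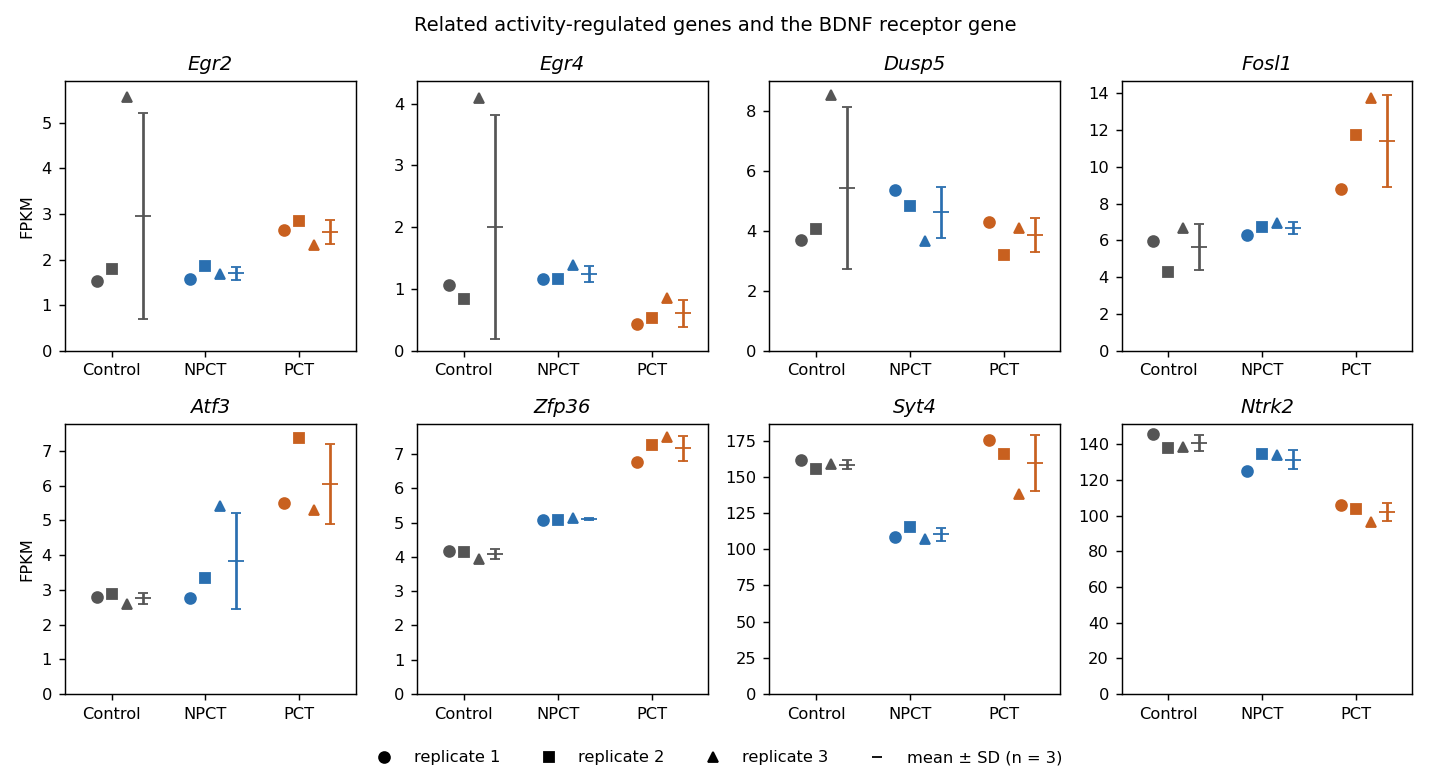
FPKM (vertical axes, each from 0) of Egr2, Egr4, Dusp5, Fosl1, Atf3, Zfp36, Syt4 and Ntrk2 in the Control, NPCT and PCT libraries, with a symbol for each replicate and the group mean and SD (n = 3). Egr2, Egr4 and Dusp5 show the raised Control replicate 3, while the PCT libraries of Fosl1 and Zfp36 lie above all others and those of Ntrk2 lie below all others.

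Of 16 neurotrophins, their receptors and processing enzymes, 10 were tested and none was called in any comparison, where 0.219%, 2.31% and 5.76% of all genes were called, while the other 6 were below the minimum. At an unadjusted p under 0.05, 1 of the 10 differed with NPCT, 4 with PCT and 6 between the peptides, where 29.3%, 18.9% and 33.1% of all genes did. Without Control replicate 3, the median log2 fold changes moved from 0.09 to 0.10 with NPCT and from -0.14 to -0.13 with PCT. Ntrk2, the gene of the BDNF receptor TrkB, was at 146, 138 and 139 FPKM in Control, 125, 135 and 134 FPKM with NPCT, and 106, 104 and 96.4 FPKM with PCT. Its log2 fold change with PCT was -0.46 ± 0.06 (SE; limma, adjusted p = 0.00384), under the fold limit. Between the peptides Ntrk2 was higher with NPCT, at 0.36 on the log2 scale (limma, adjusted p = 0.00629), also under the fold limit. Astrocytes express Ntrk2 too, and the astrocyte marker sum was likewise higher with NPCT (2385 to 2658 FPKM) than with PCT (2101 to 2170 FPKM), a part that was not tested. Furin, which cleaves pro-BDNF, and Cpe, Sort1 and Sorcs2, which take part in its sorting and binding, also had adjusted p of 0.0157 to 0.0459 between the peptides, with log2 differences of 0.25 to 0.42, all higher with NPCT. With NPCT against Control, Cpe, Ntrk2 and Sort1, the most abundant of the list, were at 528, 131 and 43.2 FPKM against 453, 141 and 41.7 FPKM and did not pass.

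Of 43 genes for calcium, kinase and transcription factor inputs to these promoters, 41 were tested and none was called in any comparison, where 0.219%, 2.31% and 5.76% of all genes were called. At an unadjusted p under 0.05, 12 of the 41 differed with NPCT, 4 with PCT and 12 between the peptides, shares no higher than the 29.3%, 18.9% and 33.1% of all genes. Without Control replicate 3, the median log2 fold changes were 0.03 with NPCT and -0.05 with PCT, against -0.01 and -0.04 with it. Between the peptides, 6 of the 41 had an adjusted p of at most 0.05 (limma), all under the fold limit. Prkacb, Mef2c, Ppp3cb, Rps6ka3 and Prkaca had the smallest p, with log2 differences of -0.32, -0.44, -0.31, -0.48 and 0.25. They encode catalytic subunits of protein kinase A, a MEF2 factor, a calcineurin subunit and the kinase RSK2. Camk2b and Prkacb, among the most abundant of the list, were at 183 and 126 FPKM with NPCT, 168 and 158 FPKM with PCT and 155 and 136 FPKM in Control. Control replicate 3 was more than 2-fold above both other controls in 0 of the 41, where 1.69% of all genes were. It was the highest of the 9 libraries in 5 of the 41, against 7.23% of all genes.

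The genes whose log2 levels most resembled Bdnf over the 9 libraries, among 10059 genes with a mean of at least 5 FPKM, were Bicd2, Cntnap4, Gcfc2, Mia2 and Cwf19l1, with Pearson r of 0.94, 0.94, 0.93, 0.93 and 0.92. Cntnap4, for example, ranged from 4.93 to 5.70 FPKM with NPCT and from 6.48 to 7.49 FPKM with PCT. The mean standardised profile of the other 9 members was most resembled by Ier2, Rpl7a, AABR07038926.1, Ccdc22 and Got1, with r of 0.90, 0.89, 0.87, 0.87 and 0.86. Ier2, itself an immediate early gene, was at 29.9 FPKM in Control replicate 3 and 18.5 to 24.7 FPKM in the other libraries. These correlations describe 9 libraries in 3 groups that share library effects.

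In the table, on build Rnor_6.0 of the submitters' processing notes, Bdnf (ENSRNOG00000047466) spans chr3:100768637-100819210 (+), Fos (ENSRNOG00000008015) chr6:109300433-109303299 (+) and Egr1 (ENSRNOG00000019422) chr18:27657628-27661429 (+). Junb (ENSRNOG00000042838) spans chr19:26092974-26094756 (-), Egr3 (ENSRNOG00000017828) chr15:51756736-51760722 (+) and Arc (ENSRNOG00000043465) chr7:115907097-115910541 (-). Npas4 (ENSRNOG00000020009) spans chr1:220261008-220265772 (-), Fosb (ENSRNOG00000046667) chr1:80214494-80221710 (-), Nr4a1 (ENSRNOG00000007607) chr7:142905758-142920216 (+) and Dusp1 (ENSRNOG00000003977) chr10:16970626-16973418 (+). Values cover whole genes, without exons or introns apart.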

How the data were processed

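Poly-A RNA of 9 libraries was sequenced, and reads were aligned with HISAT2 2.0.5 and counted with featureCounts 1.5.0-p3, per the labels and methods. The deposited values are FPKM, which the authors calculated from these counts, while their own test was DESeq2 1.20.0. FPKM times gene length, divided by a constant step of each library (57.0 to 71.5), gave whole fragments (tolerance 0.02). They totalled 13573056 to 17211642 per library. The steps corresponded to library sizes that differed from these totals. No column was without a sample. FPKM was divided by a median-ratio factor per library, which was 1 in all 9 libraries and so changed no value. Limma 3.58.1 (R 4.3.3) was run on log2 of FPKM plus 0.1, for genes with a mean of at least 0.5 FPKM. The fit had a trended variance and 1 mean per group, with 9 libraries together. P values were adjusted by Benjamini-Hochberg over all 15958 genes. A fold change is on the log2(FPKM + 0.1) scale, which understates that of low genes. The fit was tested on simulated data, but no outcome of that is given here and no result rests on it. The members and gene lists were chosen with earlier results of these data known. All members are named, as are list genes with an adjusted p of at most 0.05 (at most 5 per list and comparison), or else the 3 most abundant, and the 5 most similar genes, and 1 list gene that this rule names is not reported here. Egr2, Egr4 and Dusp5, and the departure of Control replicate 3, were singled out after their values were seen. The strand setting of the counting is not given in the sources used here. Alternatives were other pseudocounts (1, 0.01), a minimum of 1 FPKM, no filter, quantile-normalized values and 2-group fits. Others were a replicate block, gene length correction, limma-voom and leaving out libraries. Unscaled values were also run, but with a factor of 1 that fit equalled the main fit and could change nothing.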

Additional observations from a re-analysis of the deposited data

How the results depend on the processing

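No member was called in either comparison with vehicle under any of the alternatives fixed at the outset, and between the peptides 1 was called under quantile normalization and 0 to 1 with a library left out. An alternative chosen after seeing the data, with Control replicate 3 and PCT replicate 3 both left out, called 1 member (Junb) for NPCT against Control and 1 (Fos) for NPCT against PCT. It turned Arc, Egr1, Npas4 and Nr4a1 to 0.20, 0.11, 0.033 and 0.39 (log2) for NPCT against Control, Arc, Egr1, Npas4, Nr4a1 and Dusp1 to 0.10, 0.39, 0.36, 0.27 and 0.19 for PCT against Control, and Arc to 0.092 for NPCT against PCT. Leaving out 1 library at a time moved Arc from -0.75 to 0.20, Egr1 from -0.91 to 0.11, Npas4 from -1.32 to 0.033 and Nr4a1 from -0.36 to 0.39 for NPCT. For PCT it moved Fos from -0.0081 to 0.62, Arc from -0.61 to 0.33, Egr1 from -0.53 to 0.49, Npas4 from -0.88 to 0.47, Nr4a1 from -0.46 to 0.29 and Dusp1 from -0.25 to 0.071. Between the peptides Arc moved from -0.36 to 0.092, Nr4a1 from -0.032 to 0.20 and Fos from -0.74 to -0.52.

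Over all genes, 35 were called for NPCT against Control, 208 with a minimum of 1 FPKM, 9 with no filter, 189 with quantile normalization, 579 in a fit of the 2 groups, 122 with gene length correction, 354 with limma-voom, 597 with both libraries left out and 0 to 562 with 1 left out. The 0 arose without Control replicate 3, NPCT replicate 2 or NPCT replicate 3, where 4025, 4313 and 3763 genes had an unadjusted p under 0.05. For PCT against Control, 368 became 156 with both libraries left out and 172 to 398 with 1 left out. For NPCT against PCT, 919 became 454 in a fit of the 2 groups, 1569 with both left out and 525 to 1623 with 1 left out. The cause of these shifts was not tested. With a replicate block, 319, 323 and 886 genes were called in the order above and 0 members in each. Over all tested genes, libraries of the same number did not deviate together (correlations of -0.07 to 0.03). This cannot exclude pairing for a few genes. Replicate 3 was above the mean of the other libraries of its group in every group for Egr1, Fos, Fosb, Junb and Npas4. It was below that mean with both peptides for Egr3, Dusp1 and Bdnf, and with NPCT for Arc and Nr4a1. The numbers were not taken to pair the libraries. Depth limited Fosb (2 to 13 fragments outside Control replicate 3) and Npas4 (16 to 48).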

Other observations

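Control replicate 3 was compared with the other controls over all well-covered genes. Among 12758 genes with at least 20 fragments in both other Control libraries and a mean of at least 1 FPKM, ranked by the ratio of Control replicate 3 to the higher of the other controls, Egr4 ranked 7, Egr1 8, Arc 10, Egr2 12, Egr3 16, Nr4a1 17, Fos 20 and Dusp5 21. Npas4 and Fosb, at 4.71 and 8.60 times the mean of the other controls, had fewer than 20 fragments in at least 1 of those libraries and were not ranked. The ranked ones are EGR factors, a synaptic immediate early gene, an orphan nuclear receptor, an AP-1 subunit and an ERK phosphatase. Their ratios ran from 2.11 for Dusp5 to 3.84 for Egr4. Most of the top 21 were other genes, such as Wdr54 (ratio 9.46), Cd151 (4.95) and Tpi1 (2.68). Sbk1, ranked 5, was also high in Control replicate 3, at 5.09 FPKM against 0.845 and 1.12 FPKM in the other controls. It was at 1.07 to 1.38 FPKM with NPCT and at 0.989, 0.826 and 2.12 FPKM with PCT. Some genes at the top also varied among the NPCT libraries. Rplp2, ranked 1, was at 5.25, 4.05 and 258 FPKM in Control and at 238, 168 and 5.02 FPKM with NPCT, and Rps6, ranked 4, was at 6.27, 6.37 and 30.1 FPKM in Control and at 93.7, 19.7 and 20.9 FPKM with NPCT. Ribosomal protein genes have near-identical copies, between which counting can split reads, so their values are uncertain.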
